A study of Mus musculus with 2 samples.

Results

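The V segments of the T cell receptor alpha and beta chains were taken as all gene symbols in the count tables that start with Trav or Trbv, with Trav4-4-dv10 left out by the rule. This gave 162 of 32285 genes, 127 Trav and 35 Trbv segments. They were read in cells with at least 1 UMI (a counted transcript molecule) of Cd3d, Cd3e and Cd3g together, called CD3+ cells here, which numbered 3554 of 7768 cells in the tumour library and 3460 of 6209 cells in the normal adjacent library. The members were chosen by name, with earlier results of these data known. The segment left out had a UMI in 11.7% of tumour and 0.145% of normal adjacent CD3+ cells. Of the 162, 87 were seen in at least 1 CD3+ cell, 65 Trav and 22 Trbv, and 36 were seen in at least 10 over both libraries.

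The study profiled single cells of mouse prostate in 2 droplet libraries, 1 of tumour and 1 of normal tissue adjacent to tumour (called healthy in its title). In both, sorted CD45+ and CD45- cells were loaded into 1 channel together. The labels give no strain, age, genotype or tumour model, and do not say how many animals gave tissue. With 1 library per tissue there is no replicate, so every comparison below is between these libraries, and each interval covers counting error only.

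CD3+ cells had a median of 9071 UMIs in the tumour library and 7884.5 in the normal adjacent library. They were split into exclusive classes by at least 1 UMI of the class genes, with Cd8a and Cd8b1 for CD8, Cd4 for CD4, Foxp3 for regulatory cells, and Trdc, the delta chain constant region, for gamma delta cells. The CD8 class held 1009 tumour and 976 normal adjacent cells, the CD4 class 198 and 159, the Foxp3 class 57 and 66, and the Trdc class 649 and 490. Cells with none of these genes numbered 1266 and 1333, and cells with genes of several classes 375 and 436. Cells of the last group were deep, with medians of 30399 and 35638 UMIs. Of CD3+ cells, 71.7% in the tumour and 71.6% in the normal adjacent library also had at least 3 UMIs of another lineage's marker list. The macrophage and monocyte list reached that level in 65.0% and 64.0% of CD3+ cells, and the part of these transcripts in the results was not tested. The libraries shared 18 cell barcodes.

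Each T cell builds its receptor genes by joining a V segment to a J segment (and, in the beta chain, a D segment between them), so most mature alpha beta T cells express a single beta V segment and a single alpha V segment in frame. The V segment codes for the part of the chain that holds the germline loops touching peptide and MHC, and its last codons begin the third loop, CDR3, which differs from cell to cell. Cells that descend from the same T cell share the joined segments, so V usage is a common measure of how mixed a T cell population is. The V segment lies at the 5' end of the receptor transcript, whereas a 3' droplet library reads the end next to the poly(A) tail.

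The last 280 bases of the germline coding sequences of the 4 segments on which the CD8 results turn are given here, from the GENCODE vM21 transcripts (GRCm38), 5' to 3', the beta segments from chromosome 6 and Trav12-2 from chromosome 14. The capitals mark the codon of the conserved cysteine at which CDR3 begins.
Trbv29: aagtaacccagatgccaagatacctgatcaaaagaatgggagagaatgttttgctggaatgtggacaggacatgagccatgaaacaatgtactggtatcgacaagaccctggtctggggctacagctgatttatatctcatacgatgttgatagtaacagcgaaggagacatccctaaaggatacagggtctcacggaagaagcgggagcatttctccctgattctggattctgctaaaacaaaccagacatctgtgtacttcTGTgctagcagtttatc
Trbv1: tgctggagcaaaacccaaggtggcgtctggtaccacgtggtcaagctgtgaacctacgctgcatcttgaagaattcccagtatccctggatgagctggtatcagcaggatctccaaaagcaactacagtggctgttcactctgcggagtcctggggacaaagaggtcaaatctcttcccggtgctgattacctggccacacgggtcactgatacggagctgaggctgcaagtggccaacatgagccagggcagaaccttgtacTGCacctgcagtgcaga
Trbv19: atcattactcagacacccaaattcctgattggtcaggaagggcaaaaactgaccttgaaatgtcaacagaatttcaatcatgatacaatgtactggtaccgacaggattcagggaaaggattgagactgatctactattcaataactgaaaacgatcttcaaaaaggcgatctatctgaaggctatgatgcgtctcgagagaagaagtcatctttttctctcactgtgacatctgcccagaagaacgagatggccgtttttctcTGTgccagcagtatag
Trav12-2: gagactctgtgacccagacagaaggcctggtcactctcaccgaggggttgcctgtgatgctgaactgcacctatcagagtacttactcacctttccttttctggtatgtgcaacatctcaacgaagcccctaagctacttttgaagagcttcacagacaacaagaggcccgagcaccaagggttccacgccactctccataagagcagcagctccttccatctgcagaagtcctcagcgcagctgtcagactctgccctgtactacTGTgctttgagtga

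How far a segment can be counted depends on how unique it is. For each member, the share of 50-base windows of its transcript that occur in no other member was computed. Every Trbv segment had such windows. Of the 127 Trav segments, 39 had none, and all 39 had no UMI in any CD3+ cell. Mouse Trav genes come in duplicated sets, whose copies carry d or n in their symbols. Of the 54 symbols without these letters, 42 were seen and they held 80.8% of Trav calls in the tumour and 80.6% in the normal adjacent library. Of the 39 d copies 12 were seen, and of the 34 n copies 11. The median unique share was 66.4% for the first set, 0.347% for the d copies and 0.164% for the n copies. A segment at 0 UMIs with no unique window is therefore not shown to be unused.

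Trav11, which joined to Traj18 forms the alpha chain of invariant NKT cells, and its copy Trav11d are an example. The last bases of their coding sequences are printed with the conserved cysteine codon in capitals, because their identity bears on whether they can be counted.
Trav11: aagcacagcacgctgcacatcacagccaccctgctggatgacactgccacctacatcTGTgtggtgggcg
Trav11d: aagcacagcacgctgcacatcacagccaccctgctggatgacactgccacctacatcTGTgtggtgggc
The coding sequences match at all 342 bases compared. Both segments had 0 UMIs in both libraries, while the third copy, Trav11n, was seen in 1 tumour and 3 normal adjacent CD3+ cells. Trav11n is annotated as a pseudogene. Invariant NKT cells could thus not be read from their V segment in these tables. Traj18, the J segment these cells use, had UMIs in 1.01% of tumour and 1.73% of normal adjacent CD3+ cells. It was in 1.19% and 2.15% of CD8-class cells and in 1.03% and 0.975% of cells without class genes. Traj18 UMIs are thus not read here as a count of invariant NKT cells.

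Calls were sparse. A Trbv UMI was found in 317 of 3554 tumour CD3+ cells (8.92%, exact 95% interval 8.002 to 9.90) and in 393 of 3460 normal adjacent CD3+ cells (11.4%, 10.3 to 12.5). A Trav UMI of the 127 members was found in 238 tumour cells (6.70%, 5.90 to 7.57) and 302 normal adjacent cells (8.73%, 7.81 to 9.72). Both shares were lower in the tumour library, by 2.44 percentage points for Trbv (Newcombe interval -3.86 to -1.03) and by 2.03 points for Trav (-3.29 to -0.784). Among the constant regions, read at the 3' end, Trac of the alpha chain was seen in 65.7% of tumour and 63.2% of normal adjacent CD3+ cells, and Trbc1 or Trbc2 of the beta chain in 86.7% and 82.8%. Trbc1 alone was in 53.4% and 58.2%. By level, all 3 were lower in the tumour, with Trac at 197 and 212 CPM (UMIs scaled to the same library total), Trbc1 at 244 and 355 and Trbc2 at 465 and 557. The Trav difference depends on the segment left out by the rule: with Trav4-4-dv10 counted, 17.5% of tumour and 8.84% of normal adjacent CD3+ cells had a Trav UMI. With every cell with at least 3 UMIs of another lineage's markers left out, the Trbv difference was 0.122 points over 1007 tumour and 981 normal adjacent cells. After thinning each cell to 2000 UMIs the shares were 1.68% and 2.22% for Trbv and 1.53% and 2.02% for Trav, with 155 tumour and 348 normal adjacent cells too shallow to enter.

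CD3-negative cells were read for free or misassigned transcripts. Cells that took up a CD3 transcript as well are not in these gates, so the levels may be too low. Of cells with no CD3 UMI and at least 3 UMIs of the B cell genes Cd79a and Cd79b, 1 of 220 in the tumour and 0 of 265 in the normal adjacent library had a Trbv UMI, and 2 and 1 had a Trav UMI. Their median depths were 5797 and 4906 UMIs. In macrophages gated by C1qa, C1qb and C1qc, 0.180% of tumour and 0.215% of normal adjacent cells had a Trbv UMI. These levels lie well under those of CD3+ cells. Free Trbc1 or Trbc2 transcripts were far more common, in 17.5% of tumour and 28.2% of normal adjacent macrophages.

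The share of cells with a call differed between classes, and it was highest in the deepest class, cells with genes of several classes. In the CD8 class, with median depths of 12241 UMIs in the tumour and 10559.5 in the normal adjacent library, 14.5% of tumour and 16.7% of normal adjacent cells had a Trbv UMI, and 8.42% and 9.73% a Trav UMI. The intervals of both differences included 0 (-5.43 to 0.962 and -3.86 to 1.23 points). In the CD4 class the Trbv shares were 9.60% in the tumour and 15.7% in the normal adjacent library, and in the Foxp3 class 3 of 57 and 10 of 66 cells. In the Trdc class they were lower, 4.16% and 3.06% for Trbv and 2.003% and 2.65% for Trav. Trdc cells were shallower than CD8 cells, with medians of 5329 and 5824.5 UMIs. Thinned to 2000 UMIs, tumour shares for Trbv were 0.785% in Trdc cells (0.255 to 1.82) and 2.51% in CD8 cells (1.63 to 3.69). In the normal adjacent library they were 1.76% (0.762 to 3.43) and 3.26% (2.21 to 4.63). The Trdc and CD8 intervals thus overlapped in both libraries. No interval of the difference between these classes was made, and overlap alone does not show that they are alike. The part of depth was not tested further. Before thinning, Trac was also rarer in Trdc cells, at 29.9% and 34.3%, but Trbc1 or Trbc2 was seen in 90.4% and 85.9% of them. Cells without any class gene, with medians of 6685 and 5942 UMIs, had a Trbv UMI in 4.90% and 5.03% of cases. Among cells with genes of several classes the shares were 16% in the tumour and 25.9% in the normal adjacent library (difference -9.92 points, -15.4 to -4.30), and in the Foxp3 class the difference was -9.89 points (-21.0 to 1.42).

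**Figure D1:**
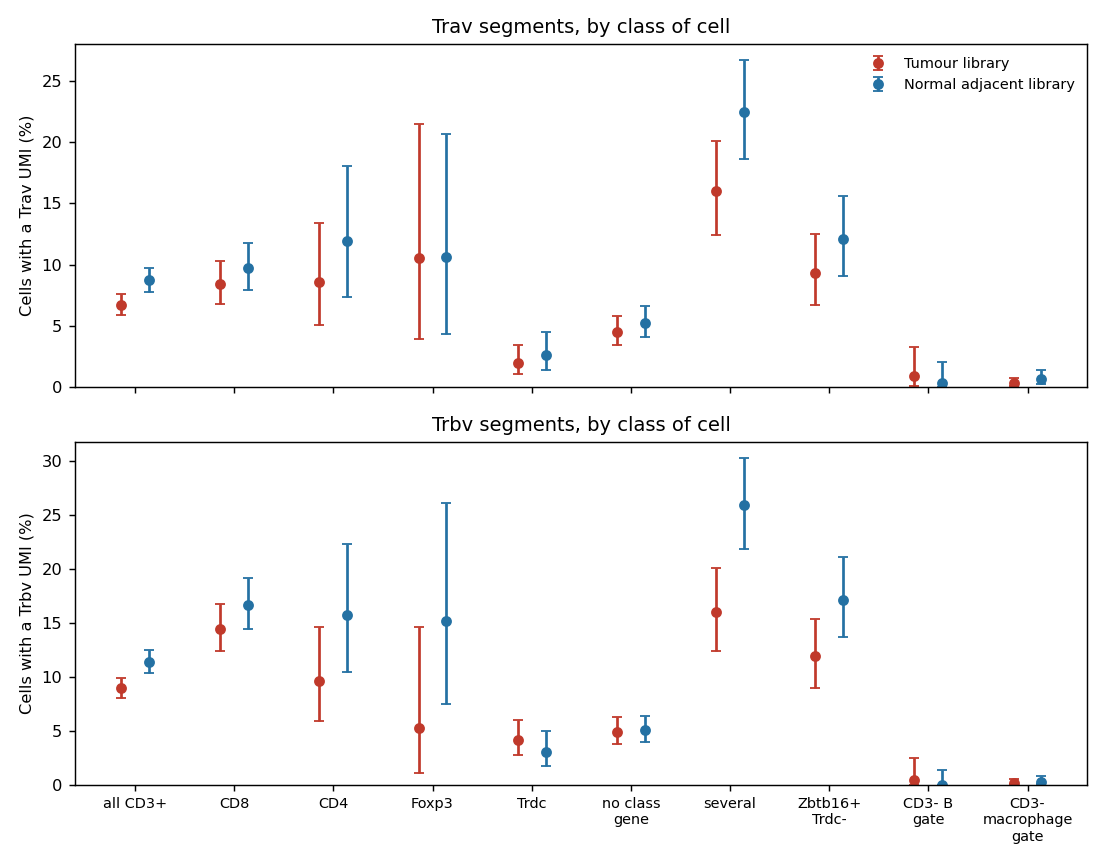
Share of cells with at least 1 UMI of any Trav member (top) or any Trbv member (bottom), in percent, for each class of CD3+ cells and for 2 CD3-negative gates, with the tumour library left of the normal adjacent library. Points are shares and bars exact 95% intervals for counting error; the CD8 and CD4 classes lie well above the CD3-negative gates, which reach at most 0.909%.

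Within a cell the evidence was mostly a single molecule. Of Trbv calls (a cell and a segment with at least 1 UMI), 93.7% in the tumour and 91.5% in the normal adjacent library rested on 1 UMI, and the highest count was 3. Of Trav calls 80.8% and 79.8% rested on 1 UMI, with a highest count of 9 and 8. More than 1 Trbv segment was seen in 16 of 317 tumour and 29 of 393 normal adjacent cells with a call. Those cells were deeper than cells with a single Trbv segment, at medians of 33016.5 against 15840 UMIs in the tumour and 27608 against 19317.5 in the normal adjacent library.

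Among CD3+ cells, 1 of the 36 members seen in at least 10 cells was at least 2-fold higher in the tumour library and 7 were at least 2-fold lower. Over all 17066 genes seen in at least 10 CD3+ cells, 2.11% were higher and 2.08% lower by that fold. Among the 5103 genes seen in 10 to 118 cells, the range of the members, the shares were 6.76% and 6.6%. The median log2 ratio was -0.35 over the 36 members, -0.01 over the genes in that range and 0.05 over all genes. The other 51 members seen, each in fewer than 10 cells, and the 75 unseen ones were not compared singly.

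Trbv29 was the segment that was higher. It was seen in 66 tumour CD3+ cells (1.86%) and 10 normal adjacent CD3+ cells (0.289%), a ratio of 6.43 (exact interval 3.28 to 14.0). It was the most used beta segment of the tumour library and, in the normal adjacent library, the least used of the 14 beta segments compared. Among beta segments, the lowest ratios were those of Trbv1 and Trbv19. Trbv1 was seen in 17 tumour cells (0.478%) and 63 normal adjacent cells (1.82%), a ratio of 0.263 (0.144 to 0.455). Trbv19 was seen in 27 tumour cells (0.760%) and 71 normal adjacent cells (2.05%), a ratio of 0.370 (0.228 to 0.584). For both, the ratio's interval lay under 1.

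Among the other beta segments, Trbv20 was seen in 9 tumour and 22 normal adjacent cells (ratio 0.398, 0.161 to 0.900), and Trbv12-1 in 8 and 18 (0.433, 0.163 to 1.05). Trbv12-2, the segment with the most cells in all, was seen in 50 tumour and 68 normal adjacent cells, and its ratio of 0.716 had an interval that included 1 (0.487 to 1.05). Trbv12-1 and Trbv12-2 have coding sequences of equal length that are 88.2% identical. The remaining frequent beta segments were close between the libraries. Trbv3 was seen in 30 tumour and 28 normal adjacent cells, Trbv13-2 in 22 and 22, Trbv15 in 21 and 26, Trbv13-1 in 19 and 15, Trbv2 in 16 and 17, Trbv13-3 in 15 and 17, Trbv16 in 13 and 20, and Trbv26 in 7 and 11. For each of these 8 the ratio's interval included 1.

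**Figure D2:**
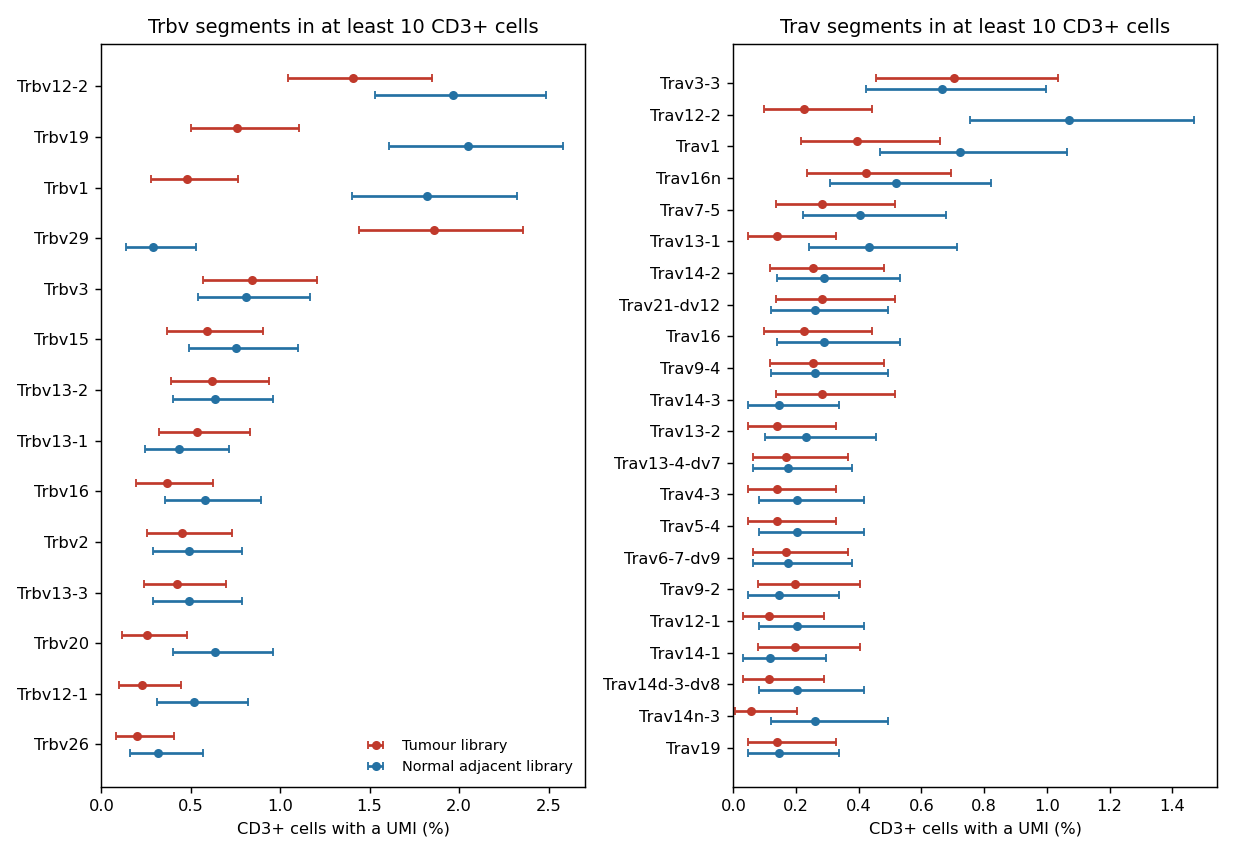
Share of CD3+ cells with a UMI of each segment seen in at least 10 CD3+ cells, in percent, beta segments at left and alpha segments at right, tumour library above the normal adjacent library for each segment. Points are shares and bars exact 95% intervals; Trbv29 stands at 1.86% in the tumour and 0.289% in the normal adjacent library, and Trbv1, Trbv19 and Trav12-2 lie the other way.

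In the CD8 class the libraries differed in Trbv29, Trbv1 and Trbv19. Trbv29 was seen in 44 of 1009 tumour CD8 cells (4.36%, 3.18 to 5.81) and in 0 of 976 normal adjacent CD8 cells (0 to 0.377%). Against a set floor of 3 cells (0.307%) in place of 0, the tumour share was 14.2-fold higher. That fold leaves out the counting error of both shares. The other 22 Trbv29 cells of the tumour were 19 with genes of several classes and 3 without class genes, and all 19 of the first kind had a Cd8a or Cd8b1 UMI. The 10 cells of the normal adjacent library were 2 CD4, 1 Foxp3, 2 without class genes and 5 with several. No Trbv29 cell was in the Trdc class in either library, and none was in the B gate. With cells thinned to 2000 UMIs, Trbv29 remained in 11 of 995 tumour and 0 of 919 normal adjacent CD8 cells.

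Trbv1 was seen in 7 of 1009 tumour CD8 cells (0.694%) and 35 of 976 normal adjacent CD8 cells (3.59%), and the difference of -2.89 points had an interval of -4.30 to -1.66. Among cells with genes of several classes it was seen in 0 of 375 tumour and 22 of 436 normal adjacent cells. With the set floor of 3 cells (0.8%) in place of 0, the tumour share there was 6.31-fold lower, again without counting error. Outside these groups Trbv1 cells were few, 10 in the tumour and 6 in the normal adjacent library. Trbv19 was seen in 12 tumour CD8 cells (1.19%) and 36 normal adjacent CD8 cells (3.69%), a difference of -2.50 points (-3.97 to -1.16). It was also in 6 tumour and 20 normal adjacent cells with genes of several classes and in 3 and 14 cells without class genes, 0.237% and 1.05% of the last group. Thinned to 2000 UMIs, Trbv1 was seen in 0 and 8 CD8 cells and Trbv19 in 4 and 2, so the direction for Trbv19 turned at that depth, where a share comes near that of 1 UMI.

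Trav12-2 showed the largest shortfall of any alpha segment. It was seen in 8 tumour CD3+ cells (0.225%) and 37 normal adjacent CD3+ cells (1.07%), a ratio of 0.210 (0.0847 to 0.459). In the CD8 class it was seen in 3 of 1009 tumour and 22 of 976 normal adjacent cells, 0.297% and 2.25%. Of the cells with Trav12-2, 5 of 8 in the tumour and 37 of 37 in the normal adjacent library had a Cd8a or Cd8b1 UMI. This segment moved with markers of other lineages. Without the cells that had at least 3 UMIs of a B, neutrophil, dendritic, epithelial or fibroblast list, the CD8 difference was -0.476 points, with an interval of -1.69 to 0.659. For Trbv29, Trbv1 and Trbv19 the same step, chosen after seeing the data, gave 4.17, -2.95 and -2.11 points. With macrophage-marked cells left out too, which leaves 221 tumour and 243 normal adjacent CD8 cells, the difference was 2.71 points for Trbv29 (0.578 to 5.80). It was then -1.07 for Trbv1 (-4.22 to 2.05), -0.33 for Trbv19 (-2.75 to 2.14) and -0.371 for Trav12-2 (-2.53 to 1.78), so that the intervals of these 3 included 0.

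**Figure D3:**
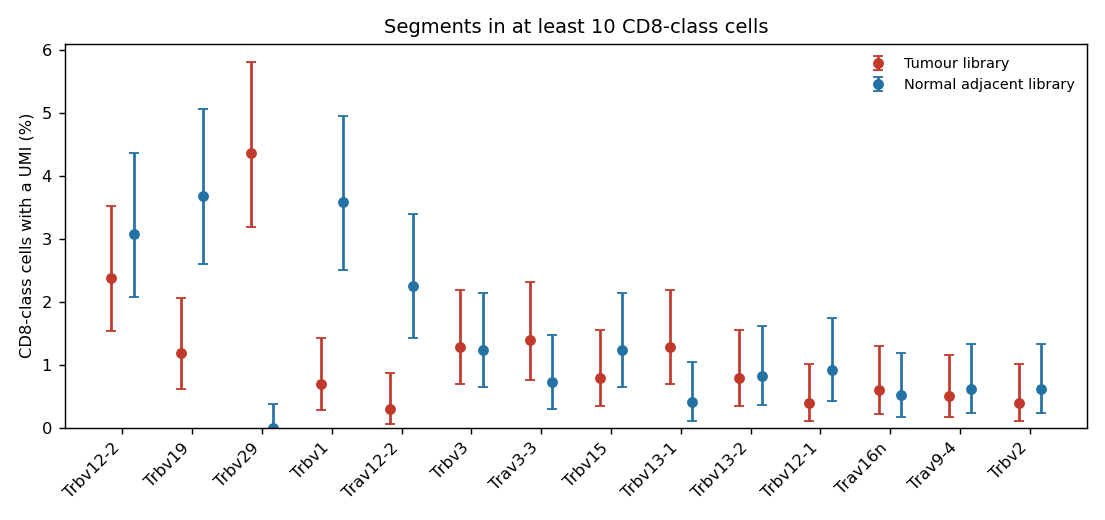
Share of CD8-class cells with a UMI of each segment seen in at least 10 of them over both libraries, in percent, ordered by total cells, with the tumour library left of the normal adjacent library. Points are shares and bars exact 95% intervals; Trbv29 was in 4.36% of tumour and 0 normal adjacent cells, while Trbv1, Trbv19 and Trav12-2 reached 3.59%, 3.69% and 2.25% in the normal adjacent library.

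In the CD8 class 14 members were seen in at least 10 cells, of which 2 were at least 2-fold higher in the tumour and 4 at least 2-fold lower. Among genes in the members' range of 10 to 54 CD8 cells, 7.15% were higher and 10.3% lower by that fold, and over all genes tested there 1.87% and 2.59%. The second higher segment was Trbv13-1, in 13 tumour and 4 normal adjacent cells, with an interval for the ratio of 0.971 to 13.2. Besides Trbv1, Trbv19 and Trav12-2, the lower set held Trbv12-1, in 4 and 9 cells. Trbv12-2 was close between the libraries, in 24 tumour and 30 normal adjacent CD8 cells, as was Trbv3 in 13 and 12. Trav3-3, the most used alpha member of tumour CD8 cells, was in 14 tumour and 7 normal adjacent cells. Its interval for the ratio included 1 (0.731 to 5.66).

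The tumour CD8 cells with Trbv29 also shared other transcripts. Prss2, a trypsinogen gene that in the annotation lies within the beta receptor locus directly before Trbd1, had a UMI in 42 of 44 Trbv29 cells and in 14 of 102 tumour CD8 cells with another Trbv. The excluded alpha segment Trav4-4-dv10 had a UMI in 31 of the 44 and in 10 of the 102. In normal adjacent CD8 cells with a Trbv call, 1 of 163 had a Prss2 UMI and 0 of 163 a Trav4-4-dv10 UMI. Free transcripts of these genes were rare, with Prss2 in 1 of 220 and 1 of 265 B-gate cells and Trav4-4-dv10 in 0 of both. Depth did not separate the tumour sets, whose medians were 15617.5 UMIs for Trbv29 cells and 15687.5 for the others.

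Read the other way, Trbv29 was in 42 of 417 Prss2-positive tumour CD8 cells (10.1%, 7.36 to 13.4) and 2 of 592 Prss2-negative ones (0.338%, 0.0409 to 1.22). Any Trbv was seen at similar rates in these sets, 13.4% and 15.2%, so that 42 of the 56 Prss2-positive cells with a beta call had Trbv29. Trbv1 was in 0 of the 417 and 7 of the 592. Among tumour CD8 cells with Trav4-4-dv10, 31 of 299 had Trbv29 (10.4%), and among those without it 13 of 710 (1.83%). Any Trbv was in 13.7% and 14.8% of these sets. Among all CD3+ tumour cells with Trav4-4-dv10, 46 of 415 had Trbv29 (11.1%), and among those without it 20 of 3139 (0.637%). There any Trbv was in 14.9% and 8.12%, so those sets differed in beta calls as a whole.

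Several surface and effector genes were also read in these cells, a set chosen after earlier values of the data were known. Cd8b1, the CD8 beta chain that marks conventional CD8 T cells, was seen in 44 of 44 Trbv29 cells and 68 of 102 tumour CD8 cells with another Trbv. Pdcd1, the inhibitory receptor PD-1, was seen in 31 of 44 and 43 of 102. Gzmb, a cytotoxic granzyme, was seen in 27 of 44 and 85 of 102, Xcl1, a chemokine for cross-presenting dendritic cells, in 24 of 44 and 84 of 102, and Itgae, an integrin of tissue-resident T cells, in 15 of 44 and 63 of 102. Free Gzmb and Xcl1 transcripts were more common than those of Prss2, each in 10.5% of tumour B-gate cells. Mki67, a marker of cycling cells, was in 14 of 44 and 34 of 102, and Tcf7, a transcription factor of naive and stem-like T cells, in 11 of 44 and 26 of 102. These sets are cells of 1 library, so the values describe that library.

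**Figure D4:**
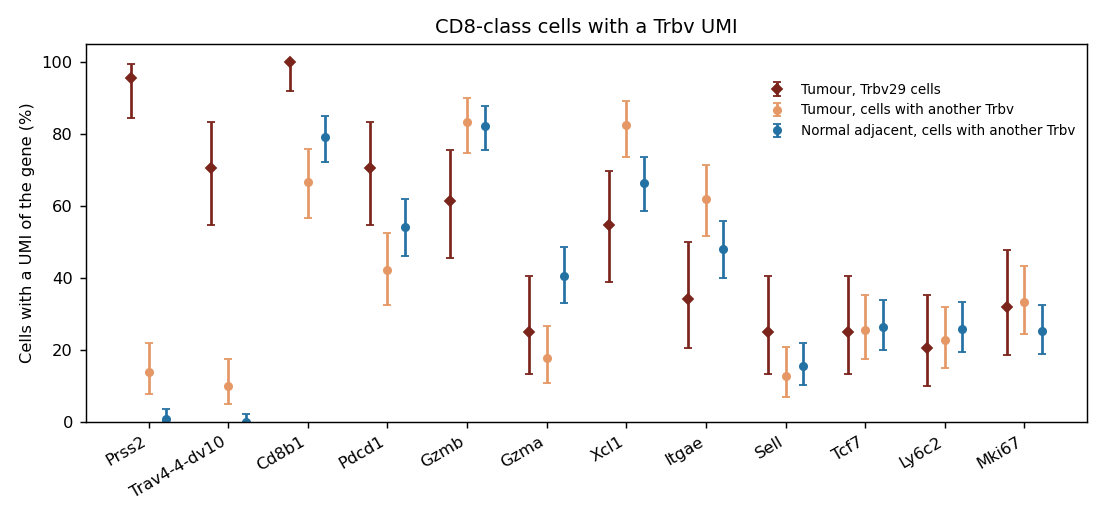
Share of CD8-class cells with a UMI of each named gene, in percent, for tumour cells with Trbv29 (44 cells, diamonds), tumour cells with another Trbv (102 cells) and normal adjacent cells with another Trbv (163 cells). Bars are exact 95% intervals; Prss2 was in 95.5%, 13.7% and 0.613% of these sets and Trav4-4-dv10 in 70.5%, 9.80% and 0.

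Alpha usage was spread over more segments, and most counts were small. Trav3-3 was in 25 tumour and 23 normal adjacent CD3+ cells, Trav16n in 15 and 18, Trav7-5 in 10 and 14 and Trav9-4 in 9 and 9. Of the segments furthest to the higher side, Trav14-3 was in 10 tumour and 5 normal adjacent cells, Trav14-1 in 7 and 4, Trav9-2 in 7 and 5 and Trav21-dv12 in 10 and 9. None of these reached 2-fold. On the lower side, Trav13-1 was in 5 tumour and 15 normal adjacent cells (ratio 0.325, 0.0923 to 0.939), Trav14n-3 in 2 and 9 (0.216, 0.0227 to 1.05) and Trav14d-3-dv8 in 4 and 7. Of the 50-base windows of Trav14n-3, 53.8% occur in no other member, against 61.2% for Trav14d-3-dv8 and 49.5% for Trav16n. Reads from the shared stretches could not be told apart between copies, so these counts are uncertain.

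The CD4 and Foxp3 classes were small. In CD4 cells Trbv3 led the tumour library, in 5 of 198 cells against 2 of 159 in the normal adjacent library. Trbv20, in 3 tumour and 7 normal adjacent cells, led the normal adjacent library. Trbv12-2 was in 3 tumour and 5 normal adjacent CD4 cells. The 9 tumour cells with Trbv20 included 2 CD8 cells, and the 22 normal adjacent cells likewise 2. In Foxp3 cells no alpha or beta segment reached 5 cells over both libraries. At these numbers differences between segments were not detectable.

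Some alpha V segments can also join the delta chain, and their symbols carry dv. Of the 9 such members, the delta-named segments held 5 of 13 Trav calls in tumour Trdc cells (38.5%, 13.9 to 68.4) and 7 of 16 in normal adjacent Trdc cells (43.8%, 19.8 to 70.1). In CD8 cells they held 7 of 90 calls in the tumour (7.78%, 3.18 to 15.4) and 11 of 103 in the normal adjacent library (10.7%, 5.45 to 18.3). Most of the alpha calls counted here in Trdc cells were therefore of segments without dv in their symbol. The intervals of Trdc and CD8 cells were apart in the normal adjacent library and overlapped at their ends in the tumour library. Trav4-4-dv10, left out by the rule, also carries dv and is not in these counts. It was in 299 of 1009 tumour and 1 of 976 normal adjacent CD8 cells. The tumour CD8 share of 7.78% thus holds only without that segment. Of the 9 members, Trav13-4-dv7 was seen most in Trdc cells, in 2 tumour and 3 normal adjacent cells, followed by Trav15-2-dv6-2 in 1 and 2. Trav21-dv12 was in 2 tumour and 0 normal adjacent Trdc cells, and Trav6-7-dv9 in 0 and 1. A V segment UMI in a Trdc cell does not tell whether it was joined to the alpha or the delta constant region.

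Beta segments also appeared in Trdc cells, in 27 of 649 tumour and 15 of 490 normal adjacent cells. Trbv12-2 was in 4 and 3 of them, Trbv15 in 3 and 3, Trbv20 in 2 and 4 and Trbv19 in 4 and 1. Trbv29 was in none.

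Trav1 forms the alpha chain of mucosal-associated invariant T (MAIT) cells, joined to Traj33, and invariant T cells express the transcription factor Zbtb16 (PLZF). Trav1 was seen in 14 tumour and 25 normal adjacent CD3+ cells (ratio 0.545, 0.262 to 1.09). Among Zbtb16-positive Trdc-negative cells it was in 4 of 429 in the tumour (0.932%, 0.255 to 2.37) and 11 of 414 in the normal adjacent library (2.66%, 1.33 to 4.70). Among Zbtb16-negative Trdc-negative cells the shares were 8 of 2233 (0.358%) and 9 of 2305 (0.390%). The intervals of the Zbtb16-positive and Zbtb16-negative cells were apart in the normal adjacent library and overlapped in the tumour library. Zbtb16-positive cells were deep, with medians of 15284 and 14847.5 UMIs, and other segments were also seen in more of them. Traj18 was in 2.10% of Zbtb16-positive and 0.940% of Zbtb16-negative cells in the tumour, and in 3.38% and 1.39% in the normal adjacent library. Thinned to 2000 UMIs, the Trav1 share of Zbtb16-positive cells was 0.234% in the tumour and 1.01% in the normal adjacent library (0.274 to 2.55). The part of depth in this difference was not tested further. Of cells without class genes, 6 of 1266 in the tumour and 14 of 1333 in the normal adjacent library had Trav1, and in the normal adjacent library it led there.

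Il17a and Zbtb16 were read in the Trav1 cells. Il17a, the cytokine of type 17 T cells, had a UMI in 6 of 14 tumour and 18 of 25 normal adjacent Trav1 cells, compared with 72 of 224 and 85 of 277 CD3+ cells with another Trav. Zbtb16 was in 6 of 14 and 14 of 25, compared with 61 of 224 and 73 of 277. Trav1 cells were shallower than the cells with another Trav, with medians of 12356 and 7240 UMIs against 19393.5 and 19177. In B-gate cells Il17a was in 6 of 220 and 8 of 265. Traj33 was seen in 2 of 14 tumour and 0 of 25 normal adjacent Trav1 cells. Of the beta segments known to pair with MAIT alpha chains, Trbv19 was in 0 of 14 and 1 of 25 Trav1 cells, compared with 4 of 224 and 7 of 277 cells with another Trav. Trbv13-2 and Trbv13-3 were in no Trav1 cell, and Trbv13-1 was read beside Trav1 in 1 tumour cell with a single segment of each chain. At this rate of detection no pairing could be read.

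How uneven usage was is given as an effective number of segments, the number of equally used segments that would give the same chance that 2 calls share a segment. Among all CD3+ cells, Trbv usage was equal to 10.4 segments in the tumour and 10.3 in the normal adjacent library. Trav usage was equal to 33.2 and 27.9. This order was not stable, since after thinning to 2000 UMIs the Trav values were 23.3 in the tumour and 33 in the normal adjacent library. The leading beta segment differed, with Trbv29 at 19.8% of 333 tumour calls and Trbv19 at 16.7% of 424 normal adjacent calls. Unevenness of beta usage was thus close in both libraries, although different segments led.

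CD8 cells used beta segments less evenly than the pool of all other CD3+ cells in both libraries. The effective number in the CD8 class was 7.52 in the tumour and 7.90 in the normal adjacent library. In the pool it was 12.8 and 12.2. That pool mixes unlike classes, and the part of this mixing was not tested. Cells without class genes had 15.3 in the tumour and 9.22 in the normal adjacent library. The CD4 class had 12.2 and 9.95, and the Trdc class 15.8 and 11.8, on few calls. In the normal adjacent library these single classes were thus nearer to CD8 cells than the pool was. The pool was not recomputed under the alternatives. In the tumour Trbv29 held 28.8% of 153 CD8 calls, and the leading 3 segments 52.9%. In the normal adjacent library Trbv19 and Trbv1 held 40.8% of 174 calls together, and the leading 3 held 58.0%. The effective number of alpha segments in the CD8 class was 23.4 in the tumour and 15.7 in the normal adjacent library, where Trav12-2 held 21.4% of 103 calls. This order was not stable: it was 19.4 in the tumour and 34 in the normal adjacent library without cells carrying another lineage's markers, 21.0 and 27.6 when cells marked only by the macrophage list were kept, 17 and 17.8 after thinning, and 11.4 and 11.3 with near-copies joined by family. When Trav4-4-dv10 was counted as a segment, the tumour CD8 value was 1.69. Drawn down to the same number of calls in CD8 cells, 38 alpha segments were seen in the tumour and 33.7 in the normal adjacent library, and 17 and 17.5 beta segments. The calls are few and come from 1 library each, and no interval for the effective number was made.

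**Figure D5:**
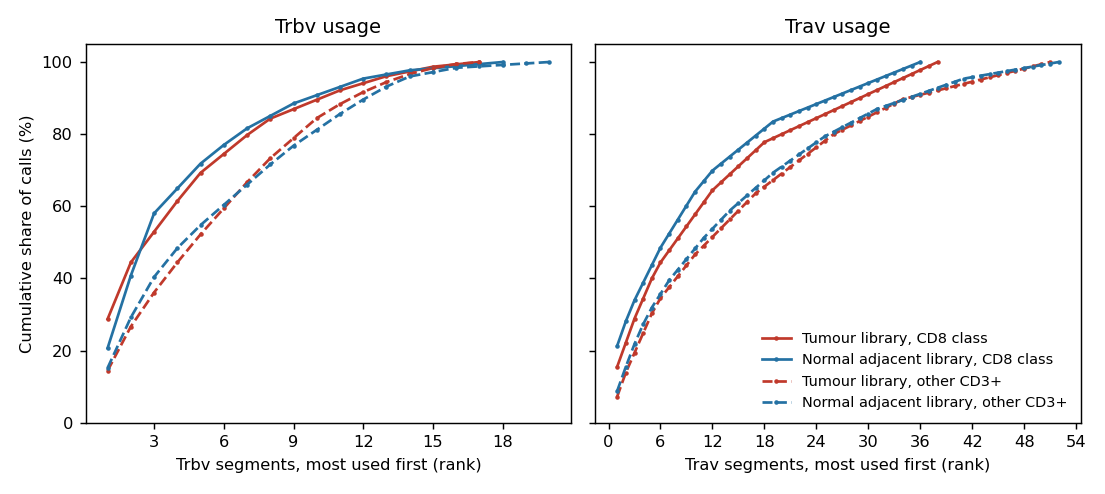
Cumulative share of calls, in percent, held by the segments ranked from the most used, for Trbv (left) and Trav (right), in CD8-class cells (solid lines) and other CD3+ cells (dashed lines) of the tumour and normal adjacent libraries. The CD8 curves rise faster; the first Trbv segment holds 28.8% of calls in the tumour and 20.7% in the normal adjacent CD8 class.

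Few cells showed both chains. A single Trav and a single Trbv member were read together in 28 tumour and 62 normal adjacent CD3+ cells. These fell into 27 and 55 combinations, and no combination was in more than 2 tumour or 3 normal adjacent cells. The most frequent were Trav9-2 with Trbv19 in the tumour, and Trav1 with Trbv12-2 and Trav12-2 with Trbv13-1 in the normal adjacent library. Trbv29 and the excluded segment were read together in 31 tumour CD8 cells, counted without the condition of a single segment per chain. That count cannot be set against these combinations. The excluded segment was in 415 tumour CD3+ cells, and the 127 Trav members together in 238.

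Of 27 genes listed for the receptor complex, its proximal signalling and V(D)J joining, 24 were in the tables and 22 had enough UMIs to compare. None was 2-fold higher or lower in CD3+ cells, where 3.21% and 2.82% of all genes were, so that a count of 0 among 22 is near the background. The median log2 ratio of CPM was -0.19. The lowest ratio was that of Traj18, at 0.557 (0.364 to 0.841). Cd3e, a signalling subunit, was at 229 CPM in the tumour and 295 in the normal adjacent library. Lck, the kinase that starts receptor signalling, was at 99.5 and 112, and Trbc1 at 244 and 355. Rag1 and Rag2, the enzymes that cut the segments in developing T cells, had no UMI in CD3+ cells of either library.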

How the data were processed

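Per the file headers, Cell Ranger 4.0.0 made the 2 deposited tables, whose values are unscaled UMI counts of each gene in each barcode. Per the labels' protocols, tissue was digested in collagenase at 1 mg/ml for 45 min, then in trypsin, passed through a 40 µm strainer, and cDNA was amplified for 14 cycles. R 4.0.3 and Seurat 3.2.2 are named in the submitters' processing notes, whose output was not used here. Those notes list GRCh38, a human build, while the features are mouse genes; the mouse build was not given in the sources used here, and coordinates are left out. All 162 gene IDs matched GENCODE vM21, used for sequences, gene types and gene order only.

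The tables hold 8237 barcodes and 92188538 UMIs for the tumour and 6553 barcodes and 77855775 UMIs for the normal adjacent library. Barcodes with under 200 genes or over 20% mitochondrial UMIs were removed, 469 and 344. No doublet caller was run; cells with markers of another lineage (at least 3 UMIs of a list) stayed in and were left out as an alternative. Shares have exact Clopper-Pearson 95% intervals, differences Newcombe intervals and ratios exact conditional intervals, all for counting error, in Python 3.11.15 with NumPy 2.4.6, SciPy 1.17.1, pandas 2.3.3 and matplotlib 3.10.9. UMIs were not scaled by length. No p-value was computed, because each tissue is 1 library. The effective number is the inverse of the unbiased Simpson index over calls. For a fold, a count of 0 was replaced by a set floor of 3 cells, which is not an exact limit. The functions were tested on simulated data.

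The segments, classes and gene lists were chosen with earlier results of these data known. Named segments are, per chain, the 5 with the most cells in CD3+ cells and in each class, the 5 furthest each way among those in at least 10 cells, the segments of invariant T cells and those with dv in their symbol; other named genes were chosen after their values were seen.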

Additional observations from a re-analysis of the deposited data

Results flagged for a closer look

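Trav4-4-dv10, the alpha segment outside the set, had a UMI in 415 of 3554 tumour CD3+ cells (11.7%, 10.6 to 12.8) and in 5 of 3460 normal adjacent CD3+ cells (0.145%, 0.0469 to 0.337). It stands out because its signal lies in a gene outside the set of members and is far above the level of the normal adjacent library. In the CD8 class it was in 299 of 1009 tumour cells (29.6%) and 1 of 976 normal adjacent cells (0.102%). Its share of CD3+ cells in the tumour was above that of the 127 Trav members together, 6.70%.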

How the results depend on the processing

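No paired analysis was possible because each tissue has 1 library and no replicate. Of 195 recomputed values under 14 alternatives, 147 stayed close to the reported value (within its counting interval, or within 1.5 times for counts and effective numbers), 45 moved and 3 turned in direction; the cause was not tested unless the alternative's own construction shows it. The last 3 alternatives below were chosen after seeing the data. With every cell carrying another lineage's markers left out, the Trbv difference was 0.122 points, the CD8 differences were 2.71 points for Trbv29, -1.07 for Trbv1, -0.33 for Trbv19 and -0.371 for Trav12-2, the tumour share of Trav1 in Zbtb16-positive cells was 0, 0 members were past 2-fold higher and 3 lower of only 5 compared, and the effective alpha number in CD8 cells was 19.4 in the tumour and 34 in the normal adjacent library, against the reported order. Thinning to 2000 UMIs, which removes most calls by construction, gave differences of -0.495 points for Trav and -0.54 for Trbv. In CD8 cells it gave 1.11, -0.871, 0.184 and -0.544 points for Trbv29, Trbv1, Trbv19 and Trav12-2. Trav1 shares were then 0.234% in tumour and 1.01% in normal adjacent cells, and 2 members were lower of only 6 compared. The effective beta number was 4.48 in tumour CD8 cells. Effective alpha numbers in CD3+ cells were 23.3 in the tumour and 33 in the normal adjacent library, against the reported order. Calling a segment only at 2 UMIs gave 0.297, 0, -0.102 and -0.618 points for the same 4 segments, Trav1 shares of 0 and 0.242%, 0 members higher and 1 lower of 2 compared, and effective alpha numbers of 17.9 in normal adjacent CD3+ cells, 15.1 in tumour and 7.12 in normal adjacent CD8 cells. Joining near-copies by family gave effective alpha numbers of 13.7 in tumour and 13.2 in normal adjacent CD3+ cells and 11.4 in tumour CD8 cells, and 4 families lower. Usage counted in UMIs put 3 members higher and 12 lower, where 3.21% and 2.82% of 17312 genes with at least 10 UMIs were. A minimum of 1 cell in each library put 8 higher and 17 lower of 67 compared. A CD3 gate of 2 UMIs put 2 higher of 35 compared. Shares over all genes were not recomputed for the other alternatives, so their counts have no background. Without Prss2-positive cells the Trbv29 difference in CD8 cells was 0.338 points. Leaving out cells with markers of lineages other than macrophages gave -0.476 points for Trav12-2 and effective alpha numbers of 21.0 in tumour and 27.6 in normal adjacent CD8 cells. Leaving out cells with Trav4-4-dv10 gave 1.83 points for Trbv29 and 2 members higher of 35 compared. With Trav4-4-dv10 counted as a segment, the Trav difference was 8.69 points and 2 segments were higher of 37 compared. The effective alpha number was then 2.58 in tumour CD3+ and 1.69 in tumour CD8 cells. Depth limits every segment: most calls rest on 1 UMI, so a segment with under 10 cells was not compared, and differences in the CD4 and Foxp3 classes were not detectable.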
